A study of Homo sapiens with 15 samples.

Results

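The genes that encode the ATPases and core subunits of the SWI/SNF chromatin remodelling complex were followed through RNA immunoprecipitation libraries of 2 prostate cancer cell lines. The set holds 10 genes taken by name, under a rule that uses no measured value: SMARCA4, SMARCA2, SMARCC1, SMARCC2, SMARCB1, SMARCD1, SMARCD2, SMARCE1, ARID1A and ARID1B. All 10 had a row in both deposited tables, among 14296 genes in the 22Rv1 table and 14176 in the LNCaP table. Together they fill 14 rows in each table, 10 under the plain symbol and 4 with the suffix .primary, which ARID1B, SMARCC1, SMARCD1 and SMARCD2 have and SMARCA4 does not. The meaning of the suffix is not given in the sources used here, so both kinds of row were kept apart, and a row under the plain symbol is called a mature row only as a name.

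SWI/SNF complexes use the energy of ATP to slide or evict nucleosomes. Each complex carries a single ATPase, either SMARCA4 (also called Brg1) or its paralog SMARCA2 (Brm), on a base module built from the SMARCC scaffold proteins, SMARCB1, SMARCE1 and a SMARCD subunit, and ARID1A or ARID1B marks the canonical form of the complex. In prostate cells the complex is known as a coregulator of the androgen receptor. Among the proteins of this complex, the Brg1 antibody was directed against the product of SMARCA4, so SMARCA4 is here both a member gene and the gene of the precipitated protein.

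In RNA immunoprecipitation fixed cells are lysed, an antibody captures a protein, and the RNA held by that protein is sequenced. The 22Rv1 and LNCaP cells were established prostate cancer lines with no genetic change or drug treatment named, and all were fixed in 0.3% formaldehyde for 30 minutes in the cold before precipitation. The 22Rv1 line gave 2 libraries each with the Brg1 antibody, with an antibody against Sfpq, a nuclear protein that binds RNA and takes part in splicing, and of input RNA, and 3 with non-specific IgG, the background antibody. LNCaP had 2 Brg1, 2 IgG and 2 input libraries, and no Sfpq library was analysed here. Nothing in the labels says that replicates came from separate cultures, so every p-value measures only the spread between these libraries, which may be technical.

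Recovered reads per library ran from 7139669 to 47871438 in the 22Rv1 Brg1, Sfpq and input libraries and from 6367908 to 7506724 in the LNCaP Brg1 and input libraries. The IgG libraries held 490879 to 4424105 reads in 22Rv1 and only 22184 and 46297 in LNCaP. Rows with the suffix .primary took 65.7% and 62.7% of the reads of the 22Rv1 Brg1 libraries, 38.2% and 34.8% of input and 27.5% and 33.4% of Sfpq. In LNCaP they took 50.8% and 60.5% in Brg1 and 42.3% and 35.2% in input. Of 9 markers of prostate luminal cells and prostate cancer lines, LNCaP had a mature row for 9, which summed to 3088 and 3339 reads per 1000000 in the inputs, and 22Rv1 had a row for 5, which summed to 126 and 133. Of 8 markers of other cells, 2 had a mature row in each table and summed to 257 and 284 in the inputs of 22Rv1, more than the prostate markers there, and to 28.5 and 31.6 in those of LNCaP. Most of the 22Rv1 sum was VIM, which encodes a mesenchymal filament protein, at 239 and 264. The part of this difference between the lines in the member values was not tested.

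Levels are given as read shares, in reads per 1000000 recovered reads of the library (rpm). They are not per length, so a row's share, its rank by reads or its ratio to another row is compared only between libraries. A log2 change is the difference between group means of log2(share + 1) with its standard error (SE) from limma, which understates the change of low rows. A row was called higher or lower at a Benjamini-Hochberg adjusted p under 0.05 over all rows tested, 22540 in 22Rv1 and 22169 in LNCaP. All 14 member rows passed the filter of a mean share of at least 1. Counts at an unadjusted p are of members only, and the share of all rows at that threshold is not given. Brg1 against input and Sfpq against input share the 2 input libraries of 22Rv1, and their changes are given side by side without a measure of agreement.

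SMARCA4 (chromosome 19, 10961030 to 11062273 in GRCh38.p14) rose far above input in the Brg1 libraries of both lines. In 22Rv1 its share was 12446 and 16356 rpm in Brg1, 310.0 and 296 in input, 486 and 492 in Sfpq and 262, 265 and 308 in IgG. Both Brg1 libraries stood above all the others, while the IgG shares overlapped those of input. Group means were 14401 ± 2765 (SD, n = 2) for Brg1 against 303 ± 9.83 (SD, n = 2) for input, a log2 change of 5.55 (SE 0.17, limma adjusted p = 1.45e-11). In LNCaP the share was 12763 and 10406 in Brg1 and 211 and 218 in input, a log2 change of 5.74 (SE 0.29, limma adjusted p = 2.66e-83). The size of that last p comes from a spread pooled over all rows of only 4 libraries. By reads, without regard to length, SMARCA4 was the third row in all 4 Brg1 libraries, where it took 1.04% to 1.64% of the reads, against a rank between 229 and 445 in the 4 inputs.

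Only 1 row in 22Rv1 and 2 rows in LNCaP had a higher change than SMARCA4 in Brg1 against input, and all of them were .primary rows. This number moved with the processing, from 0 with a pseudocount of 10 to 21 with the deposited scaling in 22Rv1, and from 0 with a pseudocount of 10 to 21 with DESeq2 in LNCaP. Against Sfpq in 22Rv1 the log2 change of SMARCA4 was 4.86 (SE 0.17, limma adjusted p = 3.73e-11), with 6 rows higher, or 0 and 63 with a pseudocount of 10 and the deposited scaling. The histogram of all rows shows SMARCA4 at the far right of the mature rows in both lines. When the IgG libraries were placed in the same limma fit, whose spread they widen, the adjusted p in Brg1 against input rose to 2.46e-04 in 22Rv1 and to 0.290 in LNCaP, so the LNCaP call is lost there. With edgeR and the IgG libraries in the fit, an alternative added after seeing the data, the adjusted p was 0.00167 in 22Rv1 and 2.48e-11 in LNCaP, so both calls stand there.

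**Figure D1:**
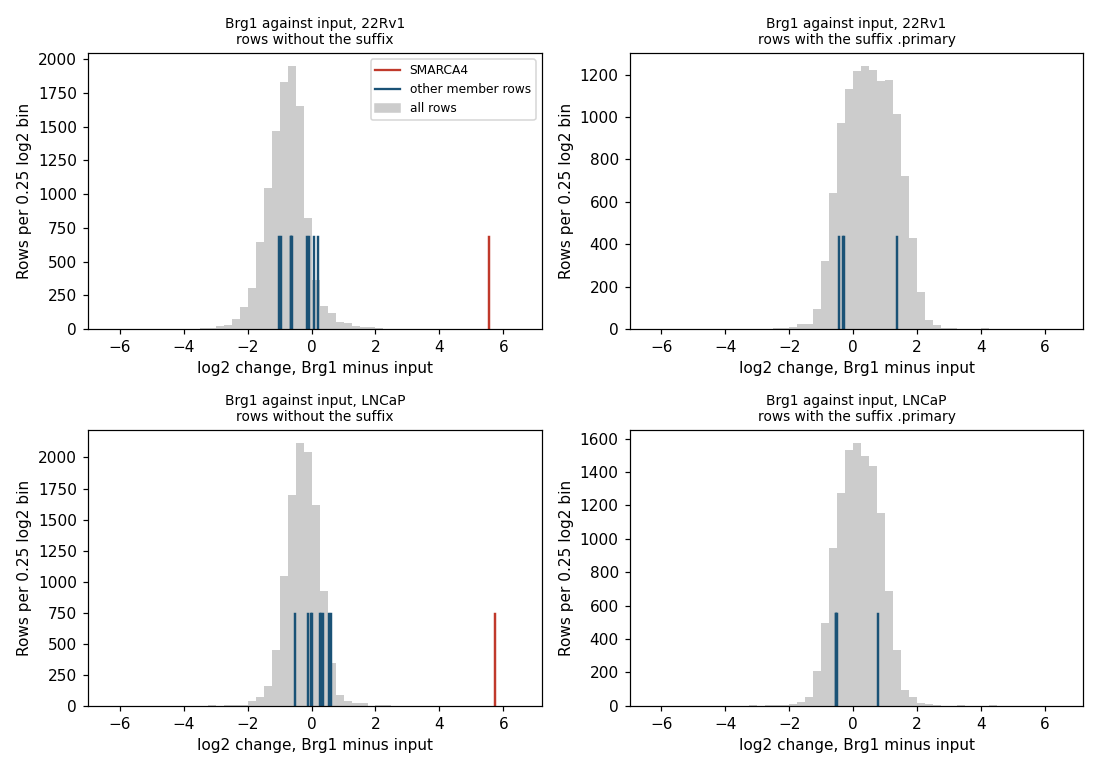
Histograms of the log2 change of read share, Brg1 minus input, over all tested rows (grey, number of rows per 0.25 log2 bin), for rows without and with the suffix .primary in 22Rv1 (top) and LNCaP (bottom). Vertical lines mark the member rows, with SMARCA4 in red at 5.55 and 5.74 and the other member rows in blue. The blue lines lie between -1.02 and 1.36 in 22Rv1 and between -0.55 and 0.78 in LNCaP. In 22Rv1 SMARCA2 and SMARCC2 are among the 824 of 10855 mature rows with a positive change.

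The IgG libraries of LNCaP differed from each other in SMARCA4. Replicate A held 160 SMARCA4 reads of 22184, a share of 7212 rpm (95% Wilson interval 6181 to 8414), and replicate B held 9 of 46297, a share of 194 (102 to 369). The first of these lies nearer to the Brg1 libraries than to input, while the second overlaps the input shares. The other 9 mature member rows held 0 to 5 reads in replicate A. Wilson intervals cover counting error only, and whether replicate A holds reads of another library was not tested. The 3 IgG libraries of 22Rv1 showed no such share, at 1161, 464 and 151 SMARCA4 reads.

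**Figure D2:**
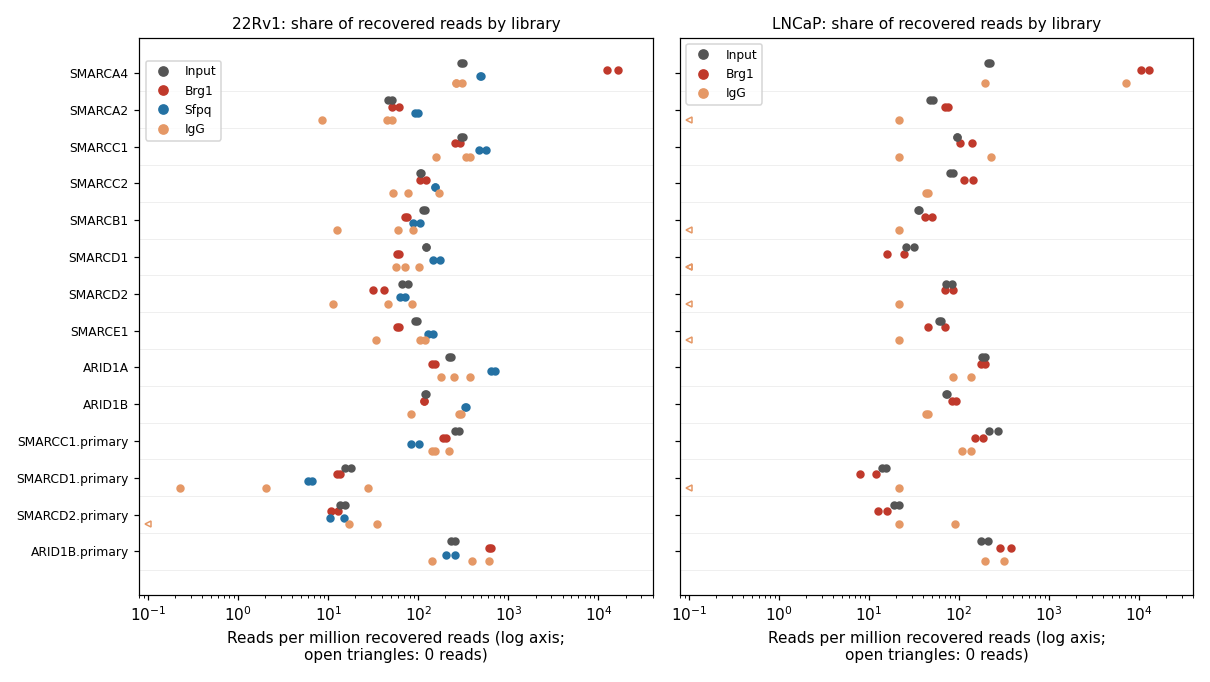
Read share of each member row in every library of 22Rv1 (left) and LNCaP (right), in rpm on a log axis, 1 point per library, coloured by group, with open triangles at the left edge for 0 reads. The Brg1 points of SMARCA4 lie between 10406 and 16356, and the highest Brg1 point of any other member row is 640, of ARID1B.primary in 22Rv1. The LNCaP IgG points rest on few reads.

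The other mature member rows changed far less than SMARCA4 in the Brg1 libraries, as their reads within the same library show. For SMARCA2, the paralog that can take its place as the ATPase (chromosome 9, 2015347 to 2193620), the libraries held 243 and 269 SMARCA4 reads per SMARCA2 read in 22Rv1 Brg1, 6.13 and 6.50 in input and 4.95 and 5.33 in Sfpq. In LNCaP the ratio was 171 and 149 in Brg1 and 4.40 and 4.26 in input. These ratios do not depend on how libraries are scaled, and in both lines the Brg1 ratios lay above all input ratios without overlap. For SMARCC1 the ratio went from 1.04 and 0.949 in input to 48.2 and 55.9 in Brg1 of 22Rv1. For SMARCD2 it went from 4.73 and 3.90 to 395 and 393. In the 22Rv1 IgG libraries the highest ratio to any partner was 30.9, to SMARCA2 in replicate B. LNCaP IgG replicate A had a ratio of 160 to SMARCC2 and to ARID1B, each with 1 read. Those 2 values lay above the LNCaP Brg1 ratios, 88.9 and 91.8 for SMARCC2 and 140 and 124 for ARID1B. In IgG replicate B, with 9 SMARCA4 reads, no ratio was above 9.0.

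SMARCA4 was tested against each of the 9 partners in 3 comparisons, 27 tests in all, by subtracting the partner's log2 share from every row in each library before the limma fit over all rows. All 9 differences passed in each comparison. In Brg1 against input of 22Rv1 they ran from 5.34 (95% interval 4.98 to 5.70, SMARCA2) to 6.57 (6.23 to 6.91, SMARCD1), with a largest limma adjusted p of 4.84e-09. In Brg1 against Sfpq they ran from 5.24 (SMARCB1) to 7.05 (ARID1A), with a largest limma adjusted p of 9.87e-09. In LNCaP they ran from 5.12 (4.51 to 5.74, SMARCC2) to 6.26 (5.40 to 7.13, SMARCD1), with a largest limma adjusted p of 1.07e-04. The SMARCA4 excess was thus above 5 log2 units beside every partner, and the order of the partners differed between the lines. With the IgG libraries in the fit, 4, 4 and 0 of the 9 differences remained past the threshold in the 3 comparisons.

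**Figure D3:**
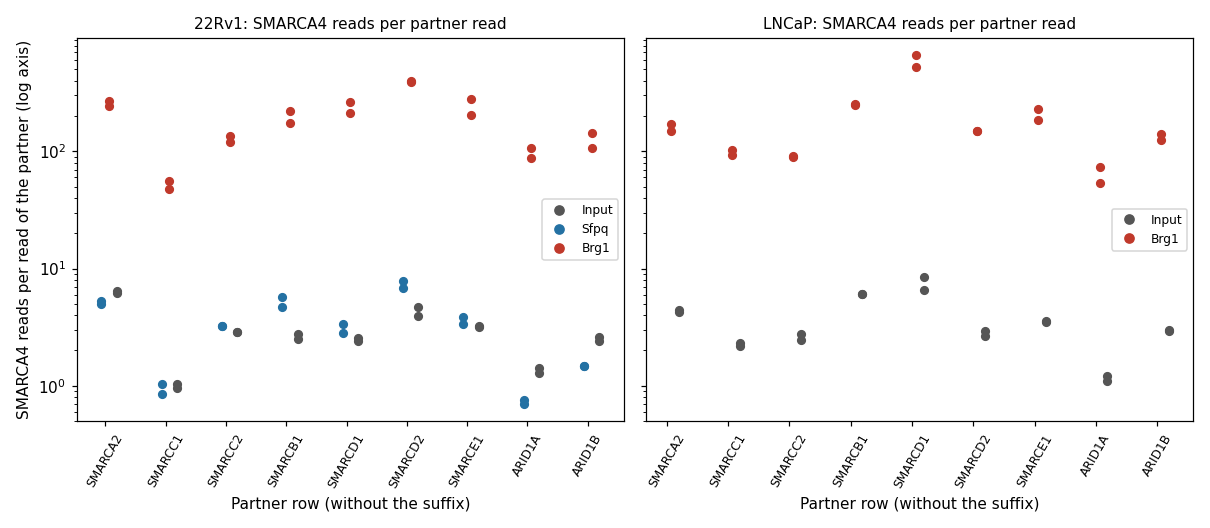
SMARCA4 reads per read of each partner's mature row in the input, Sfpq and Brg1 libraries of 22Rv1 (left) and the input and Brg1 libraries of LNCaP (right), on a log axis, 1 point per library. The Brg1 points lie between 48.2 and 661 and the input and Sfpq points between 0.699 and 8.54, with no overlap for any partner. IgG libraries are not drawn. In LNCaP IgG replicate A the ratio reached 160, on 1 read of the partner.

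In Brg1 against input of 22Rv1 no mature row of a partner was called higher. Over all 14 member rows 8 were called, 2 higher and 6 lower, where 68.6% of all tested rows were called, 27.8% higher and 40.8% lower. Both Brg1 libraries were above both inputs in 3 member rows and below them in 10, where 35% and 50.9% of all tested rows were. Of the 9 mature partner rows 1 was above and 7 below, where 501 and 9252 of all 10855 mature rows were. The rows called higher were SMARCA4 and ARID1B.primary. The 9 mature rows other than SMARCA4 had a median log2 change of -0.61, 5 lower and 4 not called, beside a median of -0.77 over all 10855 mature rows, of which 2.43% were called higher and 74.3% lower. The counts of the partners are thus no higher than the background of mature rows in either direction. Trimmed mean of M values (TMM) scaling turned the split over all rows from 6271 higher and 9200 lower to 7507 and 6755, and that of the member rows to 4 higher and 5 lower.

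The scaffold subunits gave values near input. SMARCC1 (chromosome 3, 47585269 to 47781893) had 258 and 292 rpm in 22Rv1 Brg1 and 297 and 312 in input, a log2 change of -0.15 (95% interval -0.45 to 0.16). SMARCC2 (chromosome 12, 56162359 to 56189483), which can pair with or replace SMARCC1 in the complex, had 105 and 120.5 in Brg1 and 107 and 104 in input, a change of 0.09 (-0.20 to 0.37). SMARCA2 had 51.3 and 60.7 in Brg1 and 50.6 and 45.6 in input, a change of 0.21 (-0.09 to 0.52). None of the 3 was called.

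The subunits called lower in 22Rv1 Brg1 belong to several places in the complex. SMARCD1 (chromosome 12, 50085342 to 50100707), an accessory subunit that links the complex to transcription factors, fell from 122 and 123 in input to 58.6 and 61.6, a log2 change of -1.02 (SE 0.14, limma adjusted p = 1.00e-05). SMARCD2 (chromosome 17, 63832081 to 63842685), its paralog, fell from 65.5 and 75.9 to 31.5 and 41.6, a change of -0.94 (SE 0.16, limma adjusted p = 1.09e-04). In both, every Brg1 library was below every input library.

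SMARCE1 (chromosome 17, 40624962 to 40647818), a DNA-binding subunit with an HMG domain, fell from 96.2 and 92.7 to 60.5 and 58.5, a change of -0.66. SMARCB1 (chromosome 22, 23786966 to 23838009), a core subunit known as a tumour suppressor, fell from 112 and 117 to 70.7 and 74.7, a change of -0.65. ARID1A (chromosome 1, 26696015 to 26782104), a large DNA-binding subunit often mutated in cancer, fell from 219.8 and 232 to 141 and 154, a change of -0.61. Its paralog ARID1B (chromosome 6, 156776026 to 157210779) was not called on its mature row, at 116 and 115 in Brg1 and 120 and 122 in input, a change of -0.07 (-0.34 to 0.20).

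These falls moved together with the share of reads on .primary rows, which was higher in the Brg1 libraries than in input. With shares taken among rows of the same kind only, an alternative added after seeing the data, the changes of ARID1A, SMARCB1 and SMARCE1 turned to 0.21, 0.17 and 0.16, none of them called. On that scale SMARCD1 at -0.20 and SMARCD2 at -0.13 were not called either. SMARCA2 at 1.03, SMARCC2 at 0.91, ARID1B at 0.75 and SMARCC1 at 0.68 were called higher, and SMARCA4 stood at 6.38, above every other mature row. Among the changes of all mature rows, SMARCA2, SMARCC2, ARID1B and SMARCC1 lay at percentiles 95.5, 94.2, 91.6 and 89.7. The remaining partners lay between percentile 36.9 (SMARCD1) and 64.0 (ARID1A). Of all 22540 rows of both kinds, 4914 were called higher and 7114 lower on this scale. How much of the main changes goes with the share of .primary reads was not tested.

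In LNCaP 2 of the 14 member rows were called in Brg1 against input, SMARCA4 and ARID1B.primary, both higher, where 27% of all tested rows were called, 13% higher and 14% lower. The 9 other mature rows had a median log2 change of 0.27, beside -0.28 over all mature rows, of which 2.1% were called higher and 20.0% lower, and lay between -0.52 and 0.62 with no call. At an unadjusted p under 0.05 there were 7 member rows, a number with no share of all rows to set it beside. Both Brg1 libraries were above both inputs in 7 member rows and below them in 4, where 28.5% and 35.7% of all tested rows were. Of the 9 mature partner rows 5 were above and 1 below, where 1500 and 5368 of all 10718 mature rows were. SMARCC2 had 144 and 113 rpm in Brg1 and 86.3 and 79.5 in input, a change of 0.62 (95% interval 0.12 to 1.11, limma adjusted p = 0.0554). SMARCA2 had 74.7 and 69.7 in Brg1 and 47.9 and 51.3 in input, a change of 0.53 (0.04 to 1.03, limma adjusted p = 0.101). For both, the Brg1 libraries were above the inputs without overlap, and the call depended on the scaling: with edgeR and TMM factors both were called higher, at 0.72 and 0.63.

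SMARCD1 again had the lowest mature change, with 24.3 and 15.7 in Brg1 and 31.9 and 25.6 in input, -0.52 (-1.03 to -0.02, limma adjusted p = 0.116). ARID1B had 91.2 and 83.7 in Brg1 and 71.9 and 72.7 in input, SMARCC1 had 138 and 101 against 95.8 and 94.2, and SMARCB1 had 50.3 and 41.9 against 34.6 and 36.2. Each of these 3 lay above input in both Brg1 libraries without a call. ARID1A with 173 and 195 against 192 and 180.1, SMARCD2 with 85.6 and 69.3 against 71.6 and 82.6, and SMARCE1 with 69.3 and 45.6 against 59.7 and 62.3 overlapped input. Under the deposited scaling, which shifts the median of all rows to -1.46, the 13 member rows other than SMARCA4 were negative and 11 of them were called lower. Of all 22169 tested rows, 18307 were called there in either direction, so these member calls are common. With shares among rows of the same kind SMARCC2 (1.09), SMARCA2 (1.01), SMARCB1 (0.84), SMARCC1 (0.78), ARID1B (0.74), SMARCD2 (0.47) and ARID1A (0.45) were called higher. SMARCE1 at 0.35 and SMARCD1 at -0.07 were not called. Among the changes of all mature rows, whose median was 0.17, SMARCC2 lay at percentile 97.1, SMARCA2 at 95.7 and SMARCB1 at 91.3. SMARCC1 was at 89.3, ARID1B at 87.6, SMARCD2 at 72.3, ARID1A at 71.1, SMARCE1 at 63.9 and SMARCD1, the lowest partner, at 31.8. Of all 22169 rows of both kinds, 9187 were called on this scale in either direction. The share of mature rows called higher was not counted apart.

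**Figure D4:**
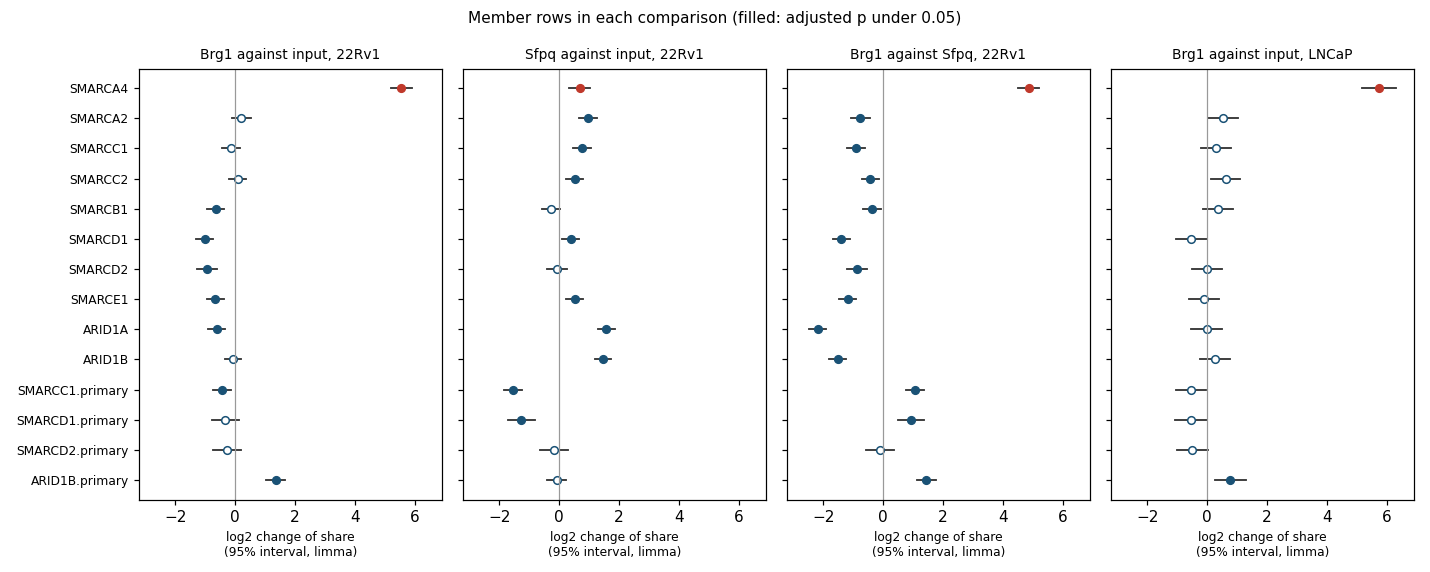
Log2 change of read share with its 95% interval from limma for the 14 member rows in Brg1 against input, Sfpq against input and Brg1 against Sfpq in 22Rv1 and in Brg1 against input in LNCaP, with filled points for an adjusted p under 0.05. SMARCA4 (red) is at 5.55, 0.69, 4.86 and 5.74, and the other rows (blue) lie between -2.19 and 1.58.

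The Sfpq libraries gave another order of the members. In Sfpq against input of 22Rv1, 10 of the 14 member rows were called, 8 mature rows higher and 2 .primary rows lower, where 60.7% of all tested rows were called, 24.6% higher and 36.1% lower. Both Sfpq libraries were above both inputs in 8 member rows and below them in 3, where 33.2% and 47.3% of all tested rows were. Of the 10 mature member rows 8 were above and 1 below, where 5522 and 3332 of all 10855 mature rows were. Among the mature rows the ARID1 paralogs had the largest changes. ARID1A rose from 219.8 and 232 in input to 649 and 704, a log2 change of 1.58 (SE 0.13, limma adjusted p = 3.46e-07), which only 514 rows exceeded. ARID1B rose from 120 and 122 to 330.3 and 336, a change of 1.45 (SE 0.13, limma adjusted p = 4.49e-07). For both, the Sfpq libraries were also above the Brg1 libraries and without overlap.

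The other rows called higher in Sfpq were SMARCA2 at 0.97, SMARCC1 at 0.76, SMARCA4 at 0.69, SMARCE1 at 0.53, SMARCC2 at 0.51 and SMARCD1 at 0.38. SMARCA2 had 98.2 and 92.4 rpm in Sfpq and SMARCC1 had 567 and 472. SMARCA4 was the fifth of the 10 mature member rows in this order, and 3928 of all rows had a higher change. SMARCB1, with 103 and 86.6 in Sfpq, was at -0.27 (95% interval -0.57 to 0.02), and SMARCD2, with 71.7 and 62.3, was at -0.08 (-0.42 to 0.27), and neither was called. The median of the 10 mature rows was 0.61, beside 0.22 over all mature rows, of which 38.4% were called higher. Under the deposited scaling SMARCC2 and SMARCD1 turned to -0.00148 and -0.14 and no member row was called higher, and the call of SMARCA4 was lost without input replicate B and that of SMARCD1 without Sfpq replicate A, input replicate A or input replicate B. With the IgG libraries in the limma fit no member row was called, with 4 at an unadjusted p under 0.05.

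SFPQ itself, the gene of the other precipitated protein, was called in the Sfpq libraries in opposite directions on its 2 rows. Over all rows 38.4% of mature rows were called higher there and 50.7% of .primary rows lower, so these directions are common. Its mature row had 826 and 735 rpm in Sfpq and 452 and 449 in input, a log2 change of 0.79 (SE 0.14, limma adjusted p = 1.97e-04). Its .primary row fell from 93.2 and 92.9 to 34.0 and 45.6, a change of -1.22 (SE 0.15, limma adjusted p = 9.62e-06). Whether SFPQ under its antibody differs from SMARCA4 under the Brg1 antibody, at 5.55, was not tested.

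Brg1 and Sfpq were also compared directly. In Brg1 against Sfpq 13 of the 14 rows were called, where 78.3% of all tested rows were called, 40.1% higher and 38.2% lower. Both Brg1 libraries were above both Sfpq libraries in 4 member rows and below them in 9, where 44.7% and 42.4% of all tested rows were. All 9 mature partner rows were below, where 8364 of all 10855 mature rows were. The 9 mature rows other than SMARCA4 were lower in Brg1, from -0.38 for SMARCB1 to -2.19 for ARID1A, with a median of -0.91 beside -0.93 over all mature rows, of which 70.7% were called lower. SMARCA4, ARID1B.primary, SMARCC1.primary and SMARCD1.primary were higher. With shares among rows of the same kind the direction of SMARCA2, SMARCB1, SMARCC1, SMARCC2, SMARCD2 and SMARCD1.primary turned. Of these, SMARCB1 at 0.57 and SMARCC2 at 0.53 were called higher, at percentiles 74.7 and 72.9 of all mature rows, and the others were not called. ARID1A at -1.24, ARID1B at -0.57 and SMARCD1 at -0.45 stayed called lower, and SMARCE1 at -0.24 lost its call. SMARCD2.primary at -1.15 was then called lower, SMARCC1.primary at 0.0011 lost its call and ARID1B.primary at 0.37 kept it. SMARCA4 stood at 5.82. The SMARCB1 call was lost without Brg1 replicate A or Sfpq replicate A, and the SMARCC2 call without Brg1 replicate A.

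Of the 4 .primary member rows, ARID1B.primary was the only row besides SMARCA4 called higher in Brg1 against input of both lines. In 22Rv1 it had 606 and 640 rpm in Brg1, 255 and 229.6 in input, 201 and 258 in Sfpq and 391, 605 and 141 in IgG. Its log2 change was 1.36 (SE 0.15, limma adjusted p = 1.29e-06) beside a median of 0.53 over all .primary rows, of which 51.4% were called higher. Both Brg1 libraries were above input and Sfpq, and IgG replicate B lay just below them. In LNCaP it had 286 and 373 in Brg1 and 209 and 173 in input, a change of 0.78 (SE 0.26, limma adjusted p = 0.0159). That LNCaP call was lost without Brg1 replicate B, without input replicate A, without input replicate B and with the replicate block, and under the deposited scaling the LNCaP change turned to -0.60. The 22Rv1 call was lost under the deposited scaling, and the calls of both lines were lost with the IgG libraries in the fit, by limma and by edgeR. With shares among rows of the same kind the change was 0.55 in 22Rv1 and 0.26 in LNCaP, both still called, at percentiles 81.0 and 78.4 of all .primary rows.

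SMARCC1.primary, SMARCD1.primary and SMARCD2.primary lay below input in Brg1. SMARCC1.primary had 200.5 and 189 in 22Rv1 Brg1 and 280.3 and 254 in input, a change of -0.45 (SE 0.14, limma adjusted p = 0.0107), a call lost without Brg1 replicate B or input replicate A. In LNCaP it had 149.5 and 183 in Brg1 and 272 and 214 in input, -0.54 with no call. In Sfpq it fell to 81.9 and 103, a change of -1.53, and only 3.94% of all rows had a lower one. SMARCD1.primary had 13.4 and 12.6 in 22Rv1 Brg1, 18.0 and 15.2 in input and 6.02 and 6.66 in Sfpq, where its change of -1.26 was called. SMARCD2.primary stayed between 10.5 and 15.3 in the 6 libraries of 22Rv1 with no call. In LNCaP, SMARCD1.primary had 7.85 and 12.0 in Brg1 against 13.9 and 15.5, and SMARCD2.primary had 12.4 and 15.9 against 21.7 and 18.9. With shares among rows of the same kind SMARCC1.primary, SMARCD1.primary and SMARCD2.primary were called lower in Brg1 against input of both lines, at -1.27, -1.13 and -1.08 in 22Rv1 and -1.06, -1.08 and -1.02 in LNCaP.

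The split of a gene's reads between its 2 rows does not depend on scaling. Of the ARID1B reads, 84.0% and 84.8% fell on the .primary row in 22Rv1 Brg1, 68.1% and 65.3% in input and 37.8% and 43.5% in Sfpq. The difference between the mature and the .primary change was -1.43 in Brg1 against input (SE 0.30, limma adjusted p = 2.07e-04), 1 of 4 genes called, where 67.6% of 8246 genes with both rows were called, 0.764% higher and 66.9% lower, and the median was -1.10. For SMARCC1 the .primary percentage was 43.7% and 39.3% in Brg1 and 48.5% and 44.9% in input, a difference of 0.31 in the other direction (95% interval -0.32 to 0.93). SMARCD1, with 18.6% and 17.0% against 12.8% and 11.04%, was at -0.69 (-1.33 to -0.05, limma adjusted p = 0.0536), and SMARCD2, with 28.9% and 20.4% against 18.9% and 15.2%, was at -0.66 (-1.33 to 0.01). With a pseudocount of 10 both of these were called, 3 of 4 genes in all.

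In Sfpq against input the mature row gained on the .primary row in 3 of the 4 genes, where 66.9% of all genes were called, 57.1% higher and 9.79% lower, and the median was 0.91. SMARCC1 had a difference of 2.29 (SE 0.30), with its .primary percentage at 12.6% and 17.9% in Sfpq. SMARCD1 had 1.64, at 3.35% and 4.33%, and ARID1B had 1.54, while SMARCD2 at 0.10 (-0.57 to 0.78) was not called. In Brg1 against Sfpq the difference was called in all 4 genes, from -0.76 for SMARCD2 to -2.97 for ARID1B, where 85% of all genes were called, 2.33% higher and 82.6% lower, and the median was -2.04. In LNCaP it was called in 0 of 4 genes by limma, 0 of them at an unadjusted p under 0.05, where 14.5% of 7993 genes were called, 0.851% higher and 13.6% lower. The LNCaP .primary percentages of SMARCC1 were 52.1% and 64.5% in Brg1 and 74.0% and 69.4% in input, a difference of 0.85 (-0.04 to 1.74), and those of ARID1B were 75.8% and 81.7% against 74.4% and 70.4%, a difference of -0.51 (-1.37 to 0.35). With the IgG libraries in the fit none of these differences was called in 22Rv1.

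**Figure D5:**
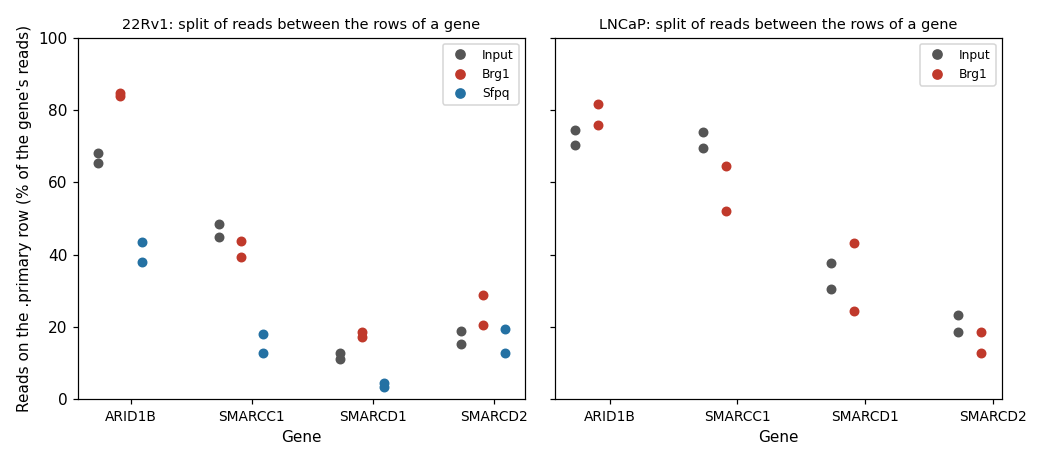
Percentage of a gene's reads that fall on its .primary row for the 4 member genes with both rows, 1 point per library, in the input, Brg1 and Sfpq libraries of 22Rv1 (left) and the input and Brg1 libraries of LNCaP (right). In 22Rv1 the Sfpq points of ARID1B, SMARCC1 and SMARCD1 lie below their input points, and the Brg1 points of ARID1B, at 84.0% and 84.8%, lie above them.

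Against IgG as the background antibody, no member row of 22Rv1 differed from input by the test. In IgG against input 0 of 14 rows were called by limma, 1 at an unadjusted p under 0.05, and edgeR and DESeq2 called 0, where 9.13% of all tested rows were called, 0.382% higher and 8.74% lower. All IgG libraries were above both inputs in 0 member rows and below them in 3, where 6.3% and 25.3% of all tested rows were. SMARCA4 had a log2 change of -0.13 (95% interval -0.64 to 0.39). The intervals of the other rows were wider. The 3 IgG libraries differed among themselves: SMARCA2 had 50.9, 8.56 and 44.8 rpm in them and SMARCB1 had 12.7, 59.4 and 87.6. Leaving out IgG replicate A or C gave 2 member calls and leaving out replicate B gave 1. Of all rows, 4950, 7434 and 3532 were called without replicates A, C and B, against 2057 of 22542 with all libraries.

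In IgG against input of LNCaP each of the 9 mature partner rows held 0 to 5 reads in either IgG library. The limma calls of that comparison were not used, because limma made 7545 false calls among 22133 rows of simulated data, where edgeR made 5 and DESeq2 2. SMARCA4 was called higher in IgG, at 2.83 with edgeR (adjusted p = 0.00196) and 3.24 with DESeq2 (adjusted p = 0.0429). By edgeR it was the only member row called, where 4.02% of all tested rows were called higher and 3.17% lower. DESeq2 also called SMARCC1.primary lower, at -1.49. It gave an adjusted p to only 11424 rows, of which 12.2% were called higher and 4.83% lower, so its shares and those of edgeR have different bases. SMARCD1 and SMARCD1.primary got no adjusted p from DESeq2. The SMARCA4 value rests on replicate A: the log2 change of its share was -0.14 without replicate A and 5.06 without replicate B.

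Other subunits of the complex, outside the 10 core genes, were counted for context. Of 19 such genes with a mature row in 22Rv1, 14 were called lower and 0 called higher in Brg1 against input (median -1.12), and 7 of 17 .primary rows were called higher and 0 lower, their median being 0.30. Over all rows of each kind 74.3% of mature rows were called lower and 51.4% of .primary rows higher, so the first share is near the background and the second below it. In LNCaP 5 of 15 mature rows were lower and 0 higher, and the 16 .primary rows held 2 higher and 2 lower ones, where 20.0% of all mature rows were lower and 23.2% and 8.25% of all .primary rows were higher and lower. The rows called in the same direction in both lines were BCL11B.primary (2.13 in 22Rv1 and 1.81 in LNCaP) and DPF3.primary (1.30 and 0.81), both higher, and BCL7B, BICRA, BICRAL, PHF10 and SS18L1, all lower. BCL11B is a zinc-finger transcription factor found in SWI/SNF complexes, DPF3 and PHF10 carry domains that read histone marks, and BICRA and BICRAL mark the non-canonical form of the complex.

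Other ATPases of the SNF2 family were counted too, and only some of them drive different remodelling complexes. Of 23 mature rows in 22Rv1, 14 were called lower and 0 called higher in Brg1 against input (median -0.43, highest change 0.17), a share below the 74.3% of all mature rows. In LNCaP 1 of 22 mature rows was higher, CHD4, the ATPase of the NuRD complex, at 0.67, and 0 were lower. Of all mature rows there, 2.1% were called higher and 20.0% lower. Among their .primary rows 9 of 21 were higher and 6 lower in 22Rv1, where 51.4% and 9.76% of all .primary rows were. In LNCaP 1 of 20 was higher and 2 were lower, where 23.2% and 8.25% of all .primary rows were. CHD7.primary was higher in both lines (1.45 and 0.75), and SRCAP.primary (-0.98 and -0.94) and HELLS.primary (-0.94 and -0.85) were lower in both.

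The rows most like SMARCA4 were sought among 16289 rows with a mean of at least 10 rpm, by the distance between log2 shares relative to the input mean of each line over the 10 Brg1, Sfpq and input libraries. The nearest 5 were MED26.primary, SHB.primary, CORO7.primary, TMEM204.primary and PMEPA1.primary, at distances of 1.54, 5.01, 5.60, 6.26 and 6.30 log2 units. The mean of MED26.primary, SHB.primary and CORO7.primary over the 6 Sfpq and input libraries was under 10 rpm, so they passed the filter only through their Brg1 libraries, and where a library held 0 reads the pseudocount sets the distance. MED26 encodes a subunit of the Mediator complex, and its .primary row had 69.7 and 78.7 rpm in 22Rv1 Brg1, 46.5 and 73.3 in LNCaP Brg1 and 0 reads in every input and Sfpq library. In IgG it had 200 reads in 22Rv1 replicate B, a share of 114, and 0 reads in the other IgG libraries. SHB.primary, of an adaptor protein gene, had 188 and 195 in 22Rv1 Brg1, 17.3 and 5.67 in input and 0 and 19.5 in Sfpq, and 106 and 130.1 in LNCaP Brg1 with 0 reads in both inputs. These distances are a description only.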

How the data were processed

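RNA immunoprecipitation libraries of 22Rv1 (9) and LNCaP (6) were analysed from 1 deposited table per line. The authors' values are a normalized signal (normalized counts); per the submitters' processing notes, STAR 2.6, Salmon 0.8.2, deepTools 2.5.2, DESeq2 and hg38 were used, with no role or order given. Tested on the tables, 100% of values in every library were whole multiples of 1 factor within 0.001 read, so reads were recovered by division; how the authors set the factors is not given in the sources used here. The tables were scaled separately and were tested apart.

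Shares are reads per 1000000 recovered reads. Tests used limma 3.58.1 in R 4.3.3 (lmFit, eBayes with trend) on log2(share + 1), rows with a mean of at least 1, Benjamini-Hochberg adjustment over all rows, threshold 0.05. Every adjusted p is from limma unless edgeR 4.0.16 or DESeq2 1.42.0 is named. Brg1, Sfpq and input were fitted without the IgG libraries, which hold fewer reads and differed more among themselves (Spearman correlation 0.31 to 0.50 between replicates, against 0.94 to 0.98 in the other groups); IgG against input used all groups of a line. In the 22Rv1 and LNCaP Brg1 comparisons, tests on simulated data recovered 99 and 92 of 100 changes of 2-fold and 100 of 100 of 4-fold. No replicate pair was a duplicate (lowest chi-square per degree of freedom 2.46). The 95% Wilson intervals cover counting error only: no molecular identifiers are named, so a molecule can be read more than once.

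The named rows were all rows of the 10 members, SFPQ, the rows of 2 lists (other SWI/SNF subunits, other SNF2-family ATPases) called in both lines or, up to 4 per list, with the largest change, and the 5 rows nearest SMARCA4. Members and lists were chosen with earlier results of these data known. The alternatives changed the pseudocount (0.1 or 10), the filter (a mean of at least 10, or none), the scaling (TMM, median-of-ratios or as deposited), the libraries in the fit, the replicate letter as a block and the tool (edgeR, DESeq2), and left out each library in turn. Chosen after seeing the data were edgeR with the IgG libraries, shares among rows of the same kind and a crossed block. The planned .primary contrast of SMARCA4 with its partners could not be run, since SMARCA4 has no such row. Positions are RefSeq gene spans in GRCh38.p14.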

Additional observations from a re-analysis of the deposited data

Results flagged for a closer look

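In 3 of the 14 member rows both Brg1 libraries lay on 1 side of both inputs in 22Rv1 and on the other side in LNCaP. ARID1B, mature row, had a log2 change in Brg1 against input of -0.069 in 22Rv1 and 0.27 in LNCaP. SMARCB1 had -0.65 and 0.36, and SMARCC1 had -0.15 and 0.31. Each line has a table with its own scaling, and the difference between the lines was not tested. Of the remaining rows, 3 lay above input in both lines and 4 below in both. How many of all rows lay on opposite sides, or on the same side, in both lines was not counted, so these numbers have no background. In each line alone, 35% and 50.9% of all tested rows lay above and below input in 22Rv1, and 28.5% and 35.7% in LNCaP. With shares among rows of the same kind the 22Rv1 changes of the 3 rows were 0.75, 0.17 and 0.68, on the LNCaP side of zero.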

How the results depend on the processing

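SMARCA4 kept its direction and its call in Brg1 against input of 22Rv1 and in Brg1 against Sfpq under every alternative run, and in LNCaP under every alternative but 1. Leaving out each library gave 5.36 to 5.75, 4.67 to 5.06 and 5.59 to 5.89, and all 9 partner differences were then called. With the IgG libraries in the limma fit the LNCaP value of 5.74 lost its call, and the partner calls fell to 4, 4 and 0. Rows called then numbered 18, 7, 630 and 21 in Brg1 against input of 22Rv1, Sfpq against input, Brg1 against Sfpq and LNCaP, against 15471, 13682, 17649 and 5976, and member rows 1, 0, 2 and 0; with edgeR they numbered 3, 5, 90 and 3797, and member rows 1, 0, 2 and 1. The mature minus .primary calls fell to 0, 0 and 0 in 22Rv1. With the IgG libraries in the fit the LNCaP call of SMARCA4 was lost by limma, where its SE was 1.81 and the IgG replicates were at 7212 and 194 rpm, and kept by edgeR.

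Under the deposited scaling the medians of all rows were -0.69, -0.72 and -1.46 in the 3 comparisons against input, the rows called numbered 8020, 7342, 11713 and 18307 and the member rows 3, 2, 8 and 12. Values that turned were SMARCA2 (-0.21) and SMARCC2 (-0.34) in Brg1 against input of 22Rv1, SMARCC2 (-0.00148) and SMARCD1 (-0.14) in Sfpq against input, and in LNCaP ARID1B (-1.10), ARID1B.primary (-0.60), SMARCA2 (-0.83), SMARCB1 (-1.001), SMARCC1 (-1.06), SMARCC2 (-0.75) and SMARCD2 (-1.37). IgG against input of 22Rv1 then called 22493 rows and 14 member rows; it called 1313 with a pseudocount of 0.1, 28 with a minimum mean of 10 and 1185 with edgeR, against 2057, and 971 to 7434 rows and 0 to 2 member rows without single libraries.

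Values near 0 turned with the scaling. In Brg1 against input of 22Rv1, ARID1B and SMARCC1 were at 0.16 and 0.087 with TMM factors, 0.12 and 0.040 with median-of-ratios factors, 0.17 and 0.089 with edgeR, 0.12 and 0.042 with DESeq2, and 0.14 and 0.060 with edgeR and the IgG libraries. In Sfpq against input, ARID1B.primary and SMARCD2 were at 0.065 and 0.075 with TMM factors, 0.13 and 0.14 with median-of-ratios factors, 0.072 and 0.078 with edgeR, 0.14 and 0.15 with DESeq2, and 0.082 and 0.084 with edgeR and the IgG libraries, and SMARCD2.primary was at 0.025 with median-of-ratios factors and 0.041 with DESeq2. In LNCaP, ARID1A was at 0.067, 0.044, 0.069, 0.047 and 0.038 under the same 5 settings, SMARCE1 was at 0.0026 with edgeR, and 4 member rows were called with TMM factors, edgeR or DESeq2.

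Shares among rows of the same kind turned ARID1A (0.21), ARID1B (0.75), SMARCB1 (0.17), SMARCC1 (0.68) and SMARCE1 (0.16) in Brg1 against input of 22Rv1, ARID1B.primary (0.18) and SMARCD2.primary (0.072) in Sfpq against input, SMARCA2 (0.19), SMARCB1 (0.57), SMARCC1 (0.046), SMARCC2 (0.53), SMARCD2 (0.075) and SMARCD1.primary (-0.045) in Brg1 against Sfpq, where 8 member rows were called, and ARID1A (0.45) and SMARCE1 (0.35) in LNCaP, where 9187 rows and 12 member rows were called.

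Without single libraries LNCaP called 587 to 7295 rows, fewest without input replicate B and 1497 without input replicate A, and 1 to 3 member rows. Ranges that crossed 0 were -0.014 to 0.19 for SMARCC2 in Brg1 against input of 22Rv1, -0.27 to 0.094, -0.18 to 0.029 and -0.42 to 0.063 for ARID1B.primary, SMARCD2 and SMARCD2.primary in Sfpq against input, -0.34 to 0.14 for SMARCD2.primary in Brg1 against Sfpq, and -0.10 to 0.065, -0.15 to 0.15 and -0.41 to 0.18 for ARID1A, SMARCD2 and SMARCE1 in LNCaP. For the mature minus .primary difference they were -0.24 to 0.45 for SMARCD2 in Sfpq against input and -0.55 to 0.60 for SMARCD1 in LNCaP, and 1 to 2 genes were called in Brg1 against input of 22Rv1. With a pseudocount of 10 that difference was called in 3 genes in 22Rv1 and 1 in LNCaP, and SMARCD1 in LNCaP was at -0.061.

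The replicate letters did not pair the libraries: A minus B deviations correlated across rows at 0.015 between Brg1 and input, -0.057 between Brg1 and Sfpq and -0.15 between Sfpq and input in 22Rv1, and at -0.35 between Brg1 and input in LNCaP. With the replicate block LNCaP called 1414 rows and 1 member row, and IgG against input of 22Rv1 called 6625 rows and 2 member rows. With the letters crossed, an alternative added after seeing the data, 10432 rows and 10 member rows were called in LNCaP, and 5828 rows higher, 8478 lower and 11 member rows in Sfpq against input. Except where a count follows from the libraries fitted, the cause of these changes was not tested. The .primary contrast of SMARCA4 was not run. IgG against input in LNCaP was run under the alternatives too; its limma calls were not used under any of them, and the edgeR and DESeq2 values stand beside the result.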
